A study of Bos taurus with 8 samples.

Results

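Potassium channel subunits are the genes whose names begin with KCN, and they were followed here in the rumen of adult steers and newborn calves. The deposited count table held 95 such genes among 33132, and the 79 with at least 10 counts over the 8 libraries were kept. Of these, 64 had enough counts to be tested, 15 were kept but fell under the filter on low counts, and the other 16 of the 95 stayed under 10 counts, 8 of them with no count at all. The samples were rumen from 4 adult steers, which are castrated males, and from 4 newborn calves labelled male, all angus crosses, with 1 RNA-seq library per animal. Age and castration differ together between these groups and cannot be told apart, and neither the ages in numbers, the diet nor a batch is given in the labels. The comparison addresses which genes change as the rumen grows and matures after birth.

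Potassium channels let potassium leave or enter a cell, and by doing so they set the membrane potential that drives other ions and that decides whether a muscle or nerve cell fires. Voltage-gated channels open on depolarization and end it, calcium-activated channels link the potential to calcium inside the cell, inward rectifiers and two-pore channels hold the resting potential, and accessory subunits tune the pores they bind. In the rumen wall, a stratified epithelium takes up potassium with the sodium pump and lets it out again through channels, while smooth muscle, with enteric nerves running through it, contracts and relaxes under their control.

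Library totals ran from 42322022 to 54449684 counts in steers and from 45779990 to 49628428 in calves. Both mates of a read pair add to a count. The labelled tissue carried markers of both its layers, with KRT5, a keratin of basal epithelium, at 2646 to 3932 CPM in steers and 2929 to 3446 CPM in calves, and MYH11, a smooth muscle myosin, at 1092 to 3277 CPM in steers and 328 to 892 CPM in calves. CPM is counts per 1000000 counts after trimmed-mean (TMM) scaling of the library size. Marker levels of the wall's cell types differed between the groups. Of 9 tested smooth muscle markers 6 rose in steers and none fell, with summed levels of 10490 to 99130 CPM in steers and 4476 to 12430 CPM in calves, and steer 4 was the steer at 10490 CPM. Of 10 enteric neuron markers none rose and 5 fell (8.60 to 15.9 CPM summed in steers, 39.4 to 90.2 CPM in calves). Of 5 tested suprabasal epithelium markers 4 fell (848.5 to 2475 CPM in steers, 37850 to 90120 CPM in calves), and DSG3 of that list was at 0 in all 8 libraries. Of 7 leukocyte markers 4 rose (22.1 to 66.0 CPM in steers, 13.4 to 17.3 CPM in calves). Calls in the other lists were 0 higher and 3 lower of 6 for fibroblasts, 0 and 3 of 8 for endothelium, 0 and 1 of 6 for pericytes, 0 and 1 of 7 for glia, 0 and 0 of 3 for interstitial cells of Cajal, 1 and 1 of 7 for basal epithelium, 1 and 2 of 5 for striated muscle, and 0 and 2 of 4 for adipocytes. Where 1 direction had no call by edgeR, DESeq2 and limma-voom made none there either, and no gene had an unadjusted p under 0.05 there. The exceptions were 1 pericyte marker and 1 marker of interstitial cells of Cajal with such a p, and DESeq2 called 1 of the latter list higher. In whole tissue, fewer cells of a type and less RNA per cell cannot be told apart.

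In steers the leak channel gene KCNK5, the accessory subunit gene KCNIP3 and the calcium-activated channel genes KCNN4 and KCNMA1 rose. The leak channel gene KCNK2, the ATP-sensitive pore gene KCNJ11 and KCNH6 were at or near 0 in steers and were read in all 4 calves. KCNK2 and KCNH6 passed the filter on low counts only through the calves. Their being read in all 4 calves was therefore set by that filter and is no separate result. Of the 64 tested potassium channel genes, 18 (28.1%) differed between steers and calves, against a background of 16.9% of the 16326 genes tested. A gene is said to have risen or fallen in steers where edgeR's quasi-likelihood test gave a Benjamini-Hochberg adjusted p under 0.05. The ± after a log2 change is its SE, and the ± after a mean in CPM is the SD over 4 animals. Such a rise was called for 7 channel genes (10.9%, against 7.70% of all genes) and a fall for 11 (17.2%, against 9.16% of all genes). The risers were KCNK5, KCNK4, KCNN4, KCNMA1, KCNIP3, KCNG2 and KCNA2. Among the genes that fell were KCNK1, KCNK2, KCNK7, KCNK16, KCNJ11, KCNQ5, KCNH6, KCNG1, KCNA6 and KCNAB1. Without any test, the 4 steers lay wholly above or wholly below the 4 calves in 21 of the 64 (32.8%, background 23.3%). The median log2 change, given throughout as steer minus calf, was -0.15 over the channel genes and 0.04 over all genes, with 30 changes positive and 34 negative.

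The share of tested members called was 54.5% for two-pore and 25.9% for voltage-gated pore-forming genes, against 16.9% of all genes. Accessory, calcium- and sodium-activated and inward rectifier genes, at 20%, 20% and 16.7%, were close to that background in the share called. The share in which steers and calves did not overlap was 50% for accessory and 45.5% for two-pore genes, against 23.3% of all genes. It was 30% for calcium- and sodium-activated, 25.9% for voltage-gated pore-forming and 16.7% for inward rectifier genes. No test was run between subfamilies. Two-pore channels had 6 called of 11 tested, 2 higher and 4 lower, with a median log2 change of -0.12. Of 27 voltage-gated pore-forming genes 2 rose and 5 fell, with a median of -0.27. Accessory subunits of voltage-gated channels had 1 rise and 1 fall among 10 (median -0.05), and calcium- and sodium-activated channels 2 rises and no fall among 10 (median 0.10), with 2 falls at an unadjusted p under 0.05, 1 by DESeq2 and none by limma-voom. Among the 6 tested inward rectifiers 1 fell and none rose (median -0.03), and no rise was seen at an unadjusted p under 0.05, by DESeq2 or by limma-voom. Summed over all 95 channel genes of the count table, the level was 828, 1080.0, 844 and 737 CPM in steers 1 to 4, against 589.6, 477, 449.5 and 541 CPM in calves 1 to 4. Every steer was above every calf in that sum, although more genes fell than rose.

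**Figure D1:**
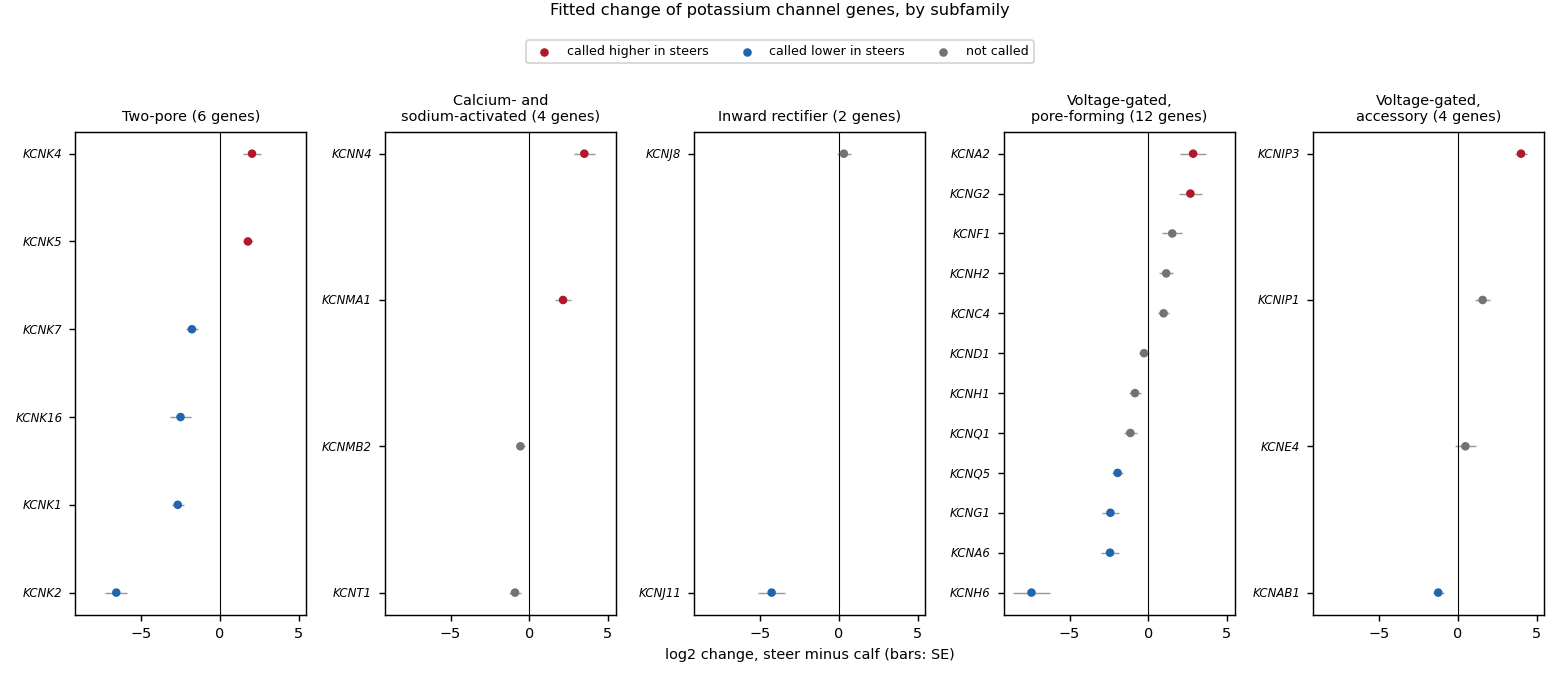
Log2 change (steer minus calf, horizontal axis) of 28 potassium channel genes described in the text, 1 panel per subfamily, with bars of 1 SE from edgeR. Red points were called higher in steers, blue points lower, and grey points were not called. KCNIP3 stands farthest to the right at 4.01 ± 0.40, and KCNH6 and KCNK2, which were at or near 0 in steers, stand farthest to the left.

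Two-pore channels are the leak channels of resting cells, and KCNK5 had the smallest adjusted p among those that rose. KCNK5 had 184, 107, 135 and 230.0 CPM in steers 1 to 4, against 61.9, 32.7, 57.1 and 38.7 CPM in calves 1 to 4. KCNK5 encodes a leak channel that alkaline pH opens, known from transporting epithelia such as the kidney tubule. Each steer was above every calf, and the lowest steer, steer 2, had 107 CPM against 61.9 CPM in the highest calf. Group means were 164 ± 54.3 CPM in steers and 47.6 ± 14.1 CPM in calves (SD, n = 4 each), and KCNK5 rose by 1.78 ± 0.31 on the log2 scale (SE, edgeR, adjusted p = 0.00444). The rise was called in all 22 alternatives. The gene lies at chromosome 23, 13060758 to 13101202 in the count file's own coordinates (build not given in the sources used here).

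KCNK4, a channel opened by stretch and by lipids and best known in neurons, was the other two-pore gene that rose. KCNK4 had 2.27, 3.23, 1.49 and 1.74 CPM in steers 1 to 4, against 0.862, 0.452, 0.126 and 0.669 CPM in calves 1 to 4. The groups did not overlap, and the log2 change was 2.04 ± 0.56 (SE, edgeR, adjusted p = 0.033). Without calf 2, calf 4, steer 1 or steer 2 the call was lost, with changes of 1.72 to 2.39 over the 8 fits that left out 1 library. It was lost too with the smooth muscle marker level, the mean log2 CPM of the tested markers, as a covariate, at 1.27 ± 0.74. That level goes largely with group, at 11.08, 12.24 and 11.62 in steers 1 to 3 and 8.41 to 9.61 in calves. Steer 4, at 9.59, was the only steer near the calves, so every fit with this covariate leans on that animal.

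KCNK2, a stretch- and lipid-gated leak channel known in neurons and smooth muscle, was almost absent from steers. KCNK2 had 0, 0.0557, 0.0372 and 0.0351 CPM in steers 1 to 4, against 3.12, 1.27, 4.54 and 4.31 CPM in calves 1 to 4. Over each group this came to 3 read pairs in steers and 316 in calves, a calf level 99.3 times the steer level in CPM (exact 95% interval 33.7 to 484, counting error only). The test called the fall (adjusted p = 0.000445, edgeR), and the fitted log2 change of -6.58 ± 0.71 rests on a steer level below the 0.0668 CPM that 3 counts per library stand for. KCNK2 lies at chromosome 16, 68369619 to 68595681.

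KCNK1, a weakly rectifying leak channel found in many epithelia and in brain, fell as well. KCNK1 had 1.45, 0.779, 1.58 and 2.28 CPM in steers 1 to 4, against 9.6, 9.18, 13.3 and 6.94 CPM in calves 1 to 4. The highest steer stayed below the lowest calf, and KCNK1 fell by 2.67 ± 0.37 on the log2 scale (SE, edgeR, adjusted p = 0.00173). KCNK7, a relative for which no current of its own is known, was also lower. KCNK7 had 50.5, 25.3, 23.4 and 25.2 CPM in steers 1 to 4, against 151, 45.8, 85.3 and 144 CPM in calves 1 to 4. Steer 1 lay above calf 2, so the groups overlapped, and steers 2 to 4 were below all calves. KCNK7 fell by 1.77 ± 0.41 (SE, edgeR, adjusted p = 0.016), a call lost with the smooth muscle covariate (-1.71, adjusted p = 0.184). The summed suprabasal epithelium markers were also lower in every steer than in every calf, as were 4 of the 5 tested markers taken singly, and their part in these falls was not tested.

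KCNK16, an alkaline-activated channel known from the pancreas, lies next to KCNK5 and KCNK17 on chromosome 23 and moved the other way from KCNK5. KCNK16 had 0.2, 0.167, 0.186 and 0.14 CPM in steers 1 to 4, against 0.932, 0.97, 0.21 and 1.84 CPM in calves 1 to 4. Calf 3 came close to the steers, and the other 3 calves were well above them. The log2 change was -2.5 ± 0.64 (SE, edgeR, adjusted p = 0.0259), but the call was lost when any single library other than calf 3 was left out (changes -2.83 to -2.01). It was also lost by limma-voom, and under the smooth muscle covariate, where the change was -3.09 ± 1.14. KCNK17, which lies between them, was not called (-0.46 ± 0.55, adjusted p = 0.617, edgeR).

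Calcium-activated channels gave 2 rises. KCNN4, the intermediate-conductance channel of secreting epithelia, red cells and lymphocytes, was low in calves and spread widely among steers. KCNN4 had 15.4, 3.51, 7.26 and 39.2 CPM in steers 1 to 4, against 1.26, 2.07, 1.33 and 1.13 CPM in calves 1 to 4. Steer 4 had the highest value and steer 2 the lowest, and even steer 2 was above every calf. KCNN4 rose by 3.49 ± 0.69 on the log2 scale (SE, edgeR, adjusted p = 0.00817), or by 2.59 without steer 4, and the call held in every alternative. Leukocyte markers were highest in steer 4 too, at 66.0 CPM summed, against 22.1 to 44.7 CPM in the other steers and 13.4 to 17.3 CPM in calves, and their part in the KCNN4 result was not tested. The gene lies at chromosome 18, 51962881 to 51981529.

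KCNMA1, the pore of the large-conductance calcium-activated channel that relaxes smooth muscle, was the other riser of its subfamily. KCNMA1 had 40.0, 133, 128 and 33.5 CPM in steers 1 to 4, against 14.6, 32.4, 16.9 and 12 CPM in calves 1 to 4. Steers 2 and 3 had about the same level, steers 1 and 4 were much lower, and steer 4 was only just above calf 2. Means were 83.7 ± 54.4 CPM in steers and 19 ± 9.16 CPM in calves (SD, n = 4 each), and the log2 change was 2.14 ± 0.52 (SE, edgeR, adjusted p = 0.0203). With the smooth muscle marker level as a covariate it was 0.43 (adjusted p = 0.661), and the call was also lost without calf 1, calf 3, calf 4 or steer 3 (changes 1.83 to 2.53). KCNMA1 spans chromosome 28, 32610164 to 33387551.

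Of its accessory beta subunits, KCNMB1, the partner known from smooth muscle, had no count in any library, and its span lies wholly inside that of KCNIP1, where reads falling in more than 1 gene were not counted. KCNMB2, an inactivating beta subunit, had a mean of 3.46 ± 0.515 CPM in steers and 5.12 ± 1.4 CPM in calves (SD, n = 4 each) and was not called (-0.57 ± 0.29, adjusted p = 0.216, edgeR). KCNT1, a channel opened by sodium, averaged 3.8 ± 0.675 CPM in steers and 7.15 ± 3.87 CPM in calves and was not called either (-0.91 ± 0.38, adjusted p = 0.128, edgeR). The counted span of KCNMB2 is shared with other genes over 15% of its length.

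Among the inward rectifiers 5 of the 11 kept members stayed under the filter. KCNJ11, the pore of the ATP-sensitive channel of pancreatic beta cells and neurons, was the 1 that fell. KCNJ11 had 0.05, 0, 0.261 and 0.316 CPM in steers 1 to 4, against 2.84, 5.02, 1.2 and 3.85 CPM in calves 1 to 4. All steers were under 0.4 CPM and all calves over 1 CPM, and KCNJ11 fell by 4.27 ± 0.85 on the log2 scale (SE, edgeR, adjusted p = 0.00873). In the channel of beta cells and neurons that pore is assembled with the sulphonylurea receptor ABCC8, which followed the same pattern. RNA levels do not show which pores and receptors are assembled in the rumen. ABCC8 had 0.1, 0.223, 0.298 and 0 CPM in steers 1 to 4, against 6.52, 5.35, 2.4 and 7.07 CPM in calves 1 to 4. Its fall was 5.1 ± 0.82 (SE, edgeR, adjusted p = 0.00339).

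Another ATP-sensitive channel, known from vascular smooth muscle, is built of KCNJ8 and ABCC9, and neither gene was called. KCNJ8 had 10.6, 21, 13.2 and 3.89 CPM in steers 1 to 4, against 8.08, 13.1, 7.13 and 10.7 CPM in calves 1 to 4. ABCC9 had 4.6, 14.6, 13.2 and 4.79 CPM in steers 1 to 4, against 2.24, 6.86, 4.76 and 3.26 CPM in calves 1 to 4. For both genes the steers and calves overlapped, with log2 changes of 0.32 ± 0.44 for KCNJ8 (adjusted p = 0.672, edgeR) and 1.11 ± 0.49 for ABCC9 (adjusted p = 0.148, edgeR). KCNJ8 turned with the smooth muscle covariate, to -1.56 (adjusted p = 0.0325), and the fall of KCNJ11 was no longer called there (-3.78, adjusted p = 0.0952). ABCC8 was named by the rule for partner subunits, and ABCC9 was chosen after its values were seen.

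**Figure D2:**
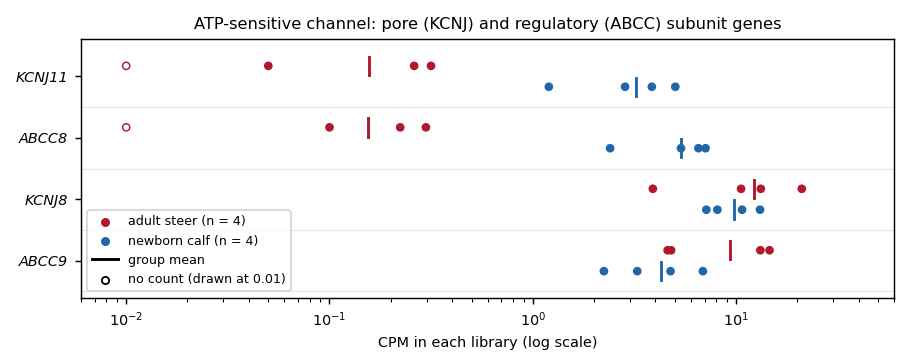
Pore and receptor genes of 2 ATP-sensitive potassium channels, in CPM per library on a log axis with values under 0.01 drawn at 0.01, steers above calves for each gene. KCNJ11 and ABCC8 are separated by group, whereas the points of KCNJ8 and ABCC9 overlap.

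Among voltage-gated pores, the KCNQ family carries slow currents that hold back firing. KCNQ5, a member known from brain and muscle, fell. KCNQ5 had 1.85, 1.5, 1.97 and 1.23 CPM in steers 1 to 4, against 3.49, 8.87, 4.84 and 8.2 CPM in calves 1 to 4. The groups did not overlap, and KCNQ5 fell by 1.95 ± 0.37 on the log2 scale (SE, edgeR, adjusted p = 0.00705), in every alternative. KCNQ1, the pore of slow repolarizing currents in heart and of potassium exit in epithelia, differed without passing the test. KCNQ1 had 9.65, 28.4, 21.2 and 7.45 CPM in steers 1 to 4, against 40.1, 44.7, 26.8 and 35.6 CPM in calves 1 to 4. Steer 2 lay above calf 3 and the other steers were below all calves. The log2 change was -1.14 ± 0.41 (adjusted p = 0.083, edgeR), and it passed by DESeq2 and limma-voom, with the smooth muscle covariate, and without steer 2 (-1.51, adjusted p = 0.0308).

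Among the KCNH genes, KCNH6, a relative of the cardiac repolarizing channel known mainly from neurons and pancreas, had reads in calves alone. KCNH6 was at 0 in all 4 steers, against 0.233, 0.903, 0.295 and 0.335 CPM in calves 1 to 4. With 94 counts over the calves and a floor of 3 counts in each steer library, KCNH6 was at least 6.61-fold lower in steers, and the test called it (adjusted p = 0.00819, edgeR). Without calf 2, the highest calf, the bound was 4.31-fold. KCNH6 was tested only because all 4 calves passed the filter on low counts, and 20 of the 22 alternatives could fit it. KCNH2, the cardiac repolarizing channel itself, also known to quiet gut smooth muscle, went the other way in 3 steers without passing. KCNH2 had 58.4, 112, 77.8 and 17.4 CPM in steers 1 to 4, against 39.5, 29.6, 25 and 26.6 CPM in calves 1 to 4. Steers 1 to 3 were above all calves and steer 4 was below all of them. The log2 change was 1.14 ± 0.45 (adjusted p = 0.118, edgeR), and it was 1.46 without steer 4 (adjusted p = 0.00643) and -0.94 with the smooth muscle covariate. KCNH1, a slowly activating relative, averaged 7.23 ± 3.21 CPM in steers and 13 ± 3.91 CPM in calves and was not called (-0.85 ± 0.37, adjusted p = 0.144, edgeR). It was called with the smooth muscle covariate (-1.97 ± 0.54, adjusted p = 0.0458).

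Silent subunits, which form no channel alone and modify the KCNB pores they join, moved in both directions. KCNG1 was lower in steers. KCNG1 had 1.75, 3.7, 1.77 and 0.526 CPM in steers 1 to 4, against 13.7, 11.4, 5.24 and 10.7 CPM in calves 1 to 4. No steer reached the lowest calf, and KCNG1 fell by 2.41 ± 0.54 on the log2 scale (SE, edgeR, adjusted p = 0.0149), in every alternative. An uncharacterized neighbour shares 63.8% of its span, so only reads in the rest were counted for it. KCNG2 was higher. KCNG2 had 26.7, 61.2, 15.5 and 3.56 CPM in steers 1 to 4, against 5.45, 6.17, 2.31 and 2.8 CPM in calves 1 to 4. Steers 1 to 3 were above all calves, while steer 4 lay inside the calf range. The log2 change of KCNG2 was 2.67 ± 0.73 (SE, edgeR, adjusted p = 0.0321); it became -0.52 with the smooth muscle covariate, and the call was also lost with limma-voom, without any 1 calf, and without steer 1 or steer 2 (changes 1.88 to 3.04).

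KCNF1, another silent subunit, was higher in 3 of the 4 steers without passing. KCNF1 had 83.2, 199, 72.7 and 20.5 CPM in steers 1 to 4, against 39.1, 24.1, 11.6 and 56.2 CPM in calves 1 to 4. Again steers 1 to 3 were above all calves and steer 4 was inside their range. KCNF1 was not called (1.52 ± 0.64, adjusted p = 0.137, edgeR), and it passed without steer 4 (1.85, adjusted p = 0.0367). With the smooth muscle covariate its change was -1.10. Neither of the KCNB pores averaged 5 CPM in either group.

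The delayed rectifiers KCNA2 and KCNA6, both known from axons, changed in opposite directions at low levels. KCNA2 had 0.5, 1.28, 0.857 and 0.526 CPM in steers 1 to 4, against 0.0466, 0.167, 0 and 0.209 CPM in calves 1 to 4. KCNA6 had 0.05, 0.278, 0.149 and 0.105 CPM in steers 1 to 4, against 1.17, 0.77, 0.505 and 0.711 CPM in calves 1 to 4. The groups were separate for both genes, with a log2 change of 2.85 ± 0.83 for KCNA2 (SE, edgeR, adjusted p = 0.0429) and of -2.43 ± 0.59 for KCNA6 (SE, edgeR, adjusted p = 0.0207). The KCNA2 call was lost without any 1 library except steer 4 (changes 2.45 to 3.36), with scaling by library size alone, without the filter and with the smooth muscle covariate (1.68 ± 1.08). The KCNA6 call was lost without calf 1 or steer 3 (changes -2.89 to -2.15) and without both calf 2 and steer 4 (adjusted p = 0.0663).

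Of the rapidly inactivating channels, KCNC4 was not called. KCNC4 had 82.9, 41.9, 55.5 and 123 CPM in steers 1 to 4, against 40.3, 24.9, 59 and 30.6 CPM in calves 1 to 4. Steers 1 and 4 were above every calf, and steers 2 and 3 lay inside the calf range. Its log2 change was 0.97 ± 0.37 (adjusted p = 0.105, edgeR), and with the smooth muscle covariate it was 2.16 ± 0.32 and called (adjusted p = 0.00436). KCND1, an A-type channel that opens below the firing threshold, averaged 4.47 ± 0.668 CPM in steers and 5.39 ± 1.84 CPM in calves and was not called (-0.27 ± 0.30, adjusted p = 0.587, edgeR).

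**Figure D3:**
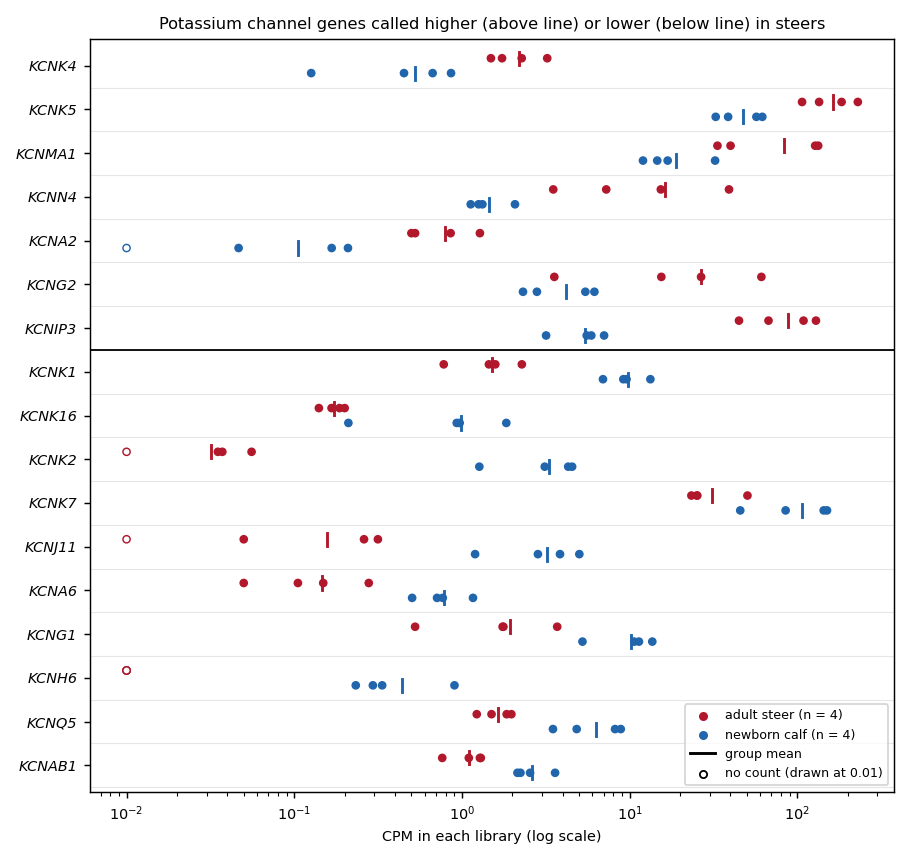
CPM per library, on a log axis with values under 0.01 drawn at 0.01, of 17 potassium channel genes called between steers (drawn above) and calves (below), with the group mean as a bar. The 4 steer points of KCNH6 lie on each other at 0, and only KCNK7 and KCNG2 show overlapping groups.

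The summed level of the enteric neuron markers was lower in each steer than in each calf, at 8.60 to 15.9 CPM in steers and 39.4 to 90.2 CPM in calves. Taken singly, 6 of the 10 markers were lower in each steer than in each calf. The groups overlapped for CHRNA3, ELAVL3, ELAVL4 and SNAP25. PRPH fell by 4.18 ± 0.54 (adjusted p = 0.00114, edgeR) on the log2 scale and UCHL1 fell by 3.08 ± 0.47 (adjusted p = 0.00247, edgeR). SNAP25 was not called (-0.38 ± 0.48, adjusted p = 0.64, edgeR). Of the channel genes described above as known from neurons, axons or brain, KCNK1, KCNK2, KCNJ11, KCNQ5, KCNH6 and KCNA6 fell, and KCNK4 and KCNA2 rose. Those descriptions come from no fixed list and cover called genes only. The tally is therefore not one over all neuronal channel genes, and it has no background share. The part of nerve content in these results was not tested.

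Among accessory subunits of voltage-gated channels, KCNIP3 had the smallest adjusted p of all 64 tested channel genes. KCNIP3 had 129, 45, 67.4 and 109 CPM in steers 1 to 4, against 5.92, 5.55, 7.05 and 3.18 CPM in calves 1 to 4. KCNIP3 encodes a calcium-binding protein that tunes A-type KCND channels and is also known as a DNA-binding repressor. Every steer was far above every calf, with steer 2 at 45.0 CPM the lowest steer and calf 3 at 7.05 CPM the highest calf. Means were 87.7 ± 38.5 CPM in steers and 5.42 ± 1.63 CPM in calves (SD, n = 4 each), a fitted fold of 16.2 and a log2 change of 4.01 ± 0.40 (SE, edgeR, adjusted p = 0.000316), called in every alternative. KCNIP3 lies at chromosome 11, 2042314 to 2136545.

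KCNIP1, a relative with the same kind of pore partner, came just short of the threshold. KCNIP1 had 44.9, 142, 72.3 and 21.2 CPM in steers 1 to 4, against 31.1, 25.4, 15.7 and 21.8 CPM in calves 1 to 4. Steers 1 to 3 were above all calves and steer 4 was not. The log2 change of KCNIP1 was 1.58 ± 0.50 (adjusted p = 0.0571, edgeR), and 1.88 without steer 4 (adjusted p = 0.0102, edgeR). KCNIP1 passed by DESeq2 (adjusted p = 0.0104) but not by limma-voom (adjusted p = 0.109). It also passed without both calf 2 and steer 4 (1.92, adjusted p = 0.0182, edgeR). With the smooth muscle covariate the change was -0.61. KCNMB1 and an uncharacterized gene share 16.2% of the KCNIP1 span.

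KCNAB1, a cytoplasmic beta subunit of KCNA channels, fell. KCNAB1 had 1.1, 1.28, 0.764 and 1.3 CPM in steers 1 to 4, against 2.24, 3.6, 2.15 and 2.55 CPM in calves 1 to 4. The highest steer stood below the lowest calf, and the log2 change was -1.25 ± 0.34 (SE, edgeR, adjusted p = 0.0343), a call lost without any 1 library except steer 4 (changes -1.33 to -1.06). With the smooth muscle covariate the call was lost while the change stayed at -1.26 ± 0.55. KCNE4, a single-pass subunit that inhibits KCNQ1 in expression systems, averaged 18.1 ± 12 CPM in steers and 13 ± 11.9 CPM in calves and was not called (0.48 ± 0.65, adjusted p = 0.665, edgeR). Calf 2 had 30.6 CPM, far above the other calves, and without it the change was 1.35. Without both calf 2 and steer 4 it was 1.61 and called (adjusted p = 0.0497), and with the smooth muscle covariate it was -1.44.

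**Figure D4:**
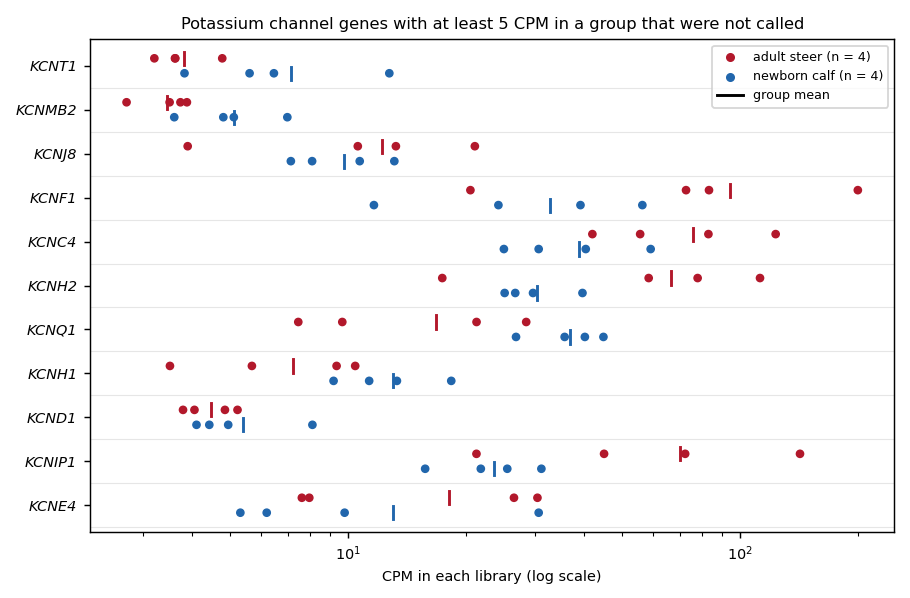
CPM per library, on a log axis, of 11 potassium channel genes that averaged at least 5 CPM in steers or calves and were not called, steers above calves, with the group mean as a bar. In KCNH2, KCNF1 and KCNIP1, 3 steers lie above all calves and steer 4 does not.

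The spread among steers had an order that recurred across channel genes. In 15 of the 64 tested genes (23.4%) steer 2 was highest and steer 4 lowest, as in the mean level of the smooth muscle markers, against 2449 of all genes tested (15%). KCNMA1, KCNG2, KCNF1, KCNH2, KCNIP1 and KCNJ8 were among them, and so were KCNG1, KCNH1 and KCNQ1, whose changes were negative. The reverse order, with steer 4 highest and steer 2 lowest, was seen in 11 channel genes (17.2%), against 3293 of all genes (20.2%). Among those were KCNK5, KCNN4 and KCNC4, and also KCNK1 and KCNJ11, which fell. The mean log2 CPM of 9 smooth muscle markers was 11.08, 12.24, 11.62 and 9.59 in steers 1 to 4, against 9.46, 9.61, 8.41 and 9.07 in calves 1 to 4, so steer 4 was close to calf 2. Steer 4 was above all calves in 6 of the 7 channel genes called higher, KCNG2 being the exception, and below all calves in all 11 called lower. Its values were part of the test that made these calls, so these counts are no separate support for them. With the covariate the change was 2.51 for KCNK5, 4.87 for KCNN4, 4.76 for KCNIP3, -1.81 for KCNK1, -4.66 for KCNG1, -3.56 for KCNA6 and -8.52 for ABCC8, all still called. KCNK2 (-5.96), KCNH6 and KCNQ5 stayed called too. The part of smooth muscle in the results for single genes was not tested beyond the covariate fits given beside them. In those fits the marker level goes largely with group, so a call kept, lost or reversed there cannot tell them apart.

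**Figure D5:**
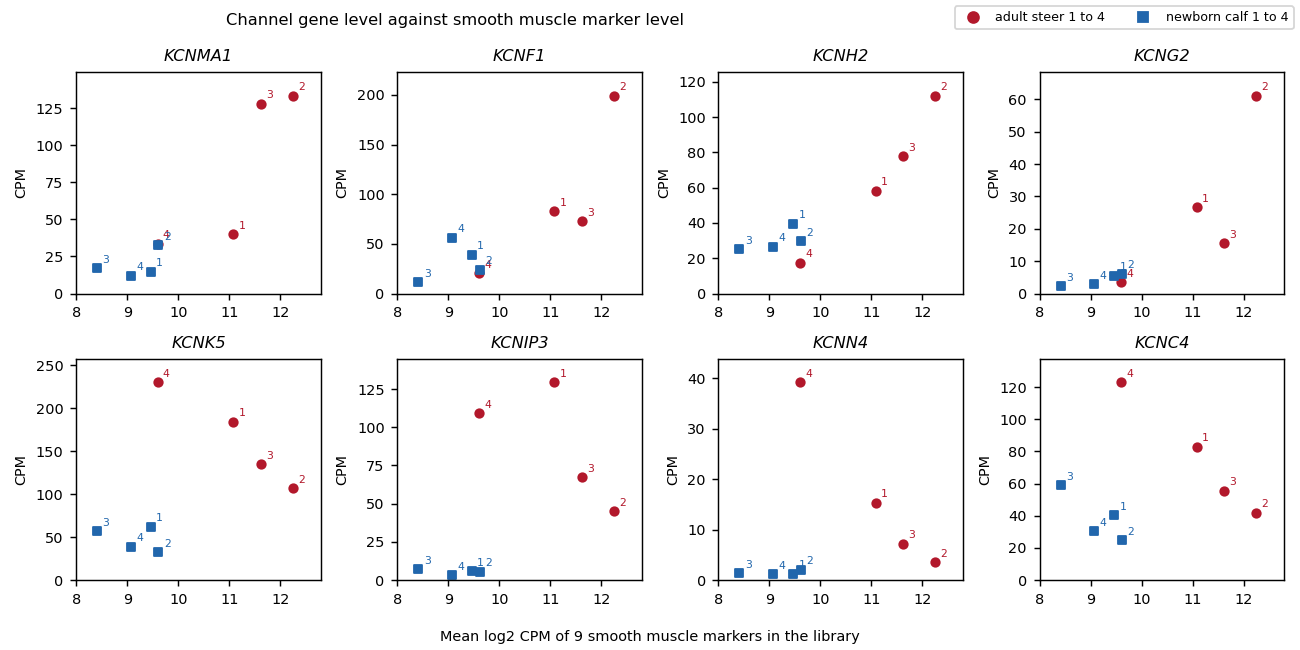
Level of 8 potassium channel genes (CPM, vertical axis) against the mean log2 CPM of 9 smooth muscle markers (horizontal axis), 1 numbered point per steer or calf library. KCNMA1, KCNF1, KCNH2 and KCNG2 are highest in steer 2, which has the highest marker level, and in KCNK5, KCNIP3, KCNN4 and KCNC4 steer 4 is above all calves at a marker level close to that of calf 2. The steer 4 point of KCNMA1 is hidden behind the nearly equal point of calf 2.

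Levels of different genes were compared per kilobase of counted span, which includes introns and so understates genes with long introns. On that scale KCNF1 stood highest among the named genes in steers, at 40.6 CPM per kilobase in steers and 14.2 in calves. KCNK7 stood highest in calves, with 11.2 in steers and 38.2 in calves. KCNK5 had 4.05 CPM per kilobase in steers and 1.18 in calves, and KCNC4 had 3.25 in steers and 1.66 in calves.

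Another 34 tested channel genes averaged between 0.0696 and 4.83 CPM in steers and between 0.226 and 3.55 CPM in calves, with log2 changes from -3.15 to 2.41. None was called, and the smallest adjusted p was 0.0522 (KCNE3, edgeR). At an unadjusted p under 0.05 there were 3 higher and 7 lower, DESeq2 called 2 higher and 5 lower, and limma-voom 0 higher and 3 lower. In 5 of them the groups did not overlap, with steers above calves for KCNN3 and below for KCNE3, KCNAB3, KCNIP4 and KCNH4, named after their values were seen.

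Among the 15 kept genes that the filter set aside, KCNK10 had 222 counts over the 4 steers and 8 over the 4 calves and KCNG3 had 249 counts over the 4 steers and 4 over the 4 calves. KCNK10, a stretch-gated leak channel of the same branch as KCNK2 and KCNK4, came to 111 pairs in steers and 4 in calves, a steer level 29.4 times the calf level (exact 95% interval 11.2 to 110, counting error only). KCNG3, also a silent subunit, came to 125 pairs in steers and 2 in calves, 66.3 times (18.0 to 554). In the fit without the filter both were called (KCNK10 adjusted p = 0.0156, KCNG3 adjusted p = 0.0296, edgeR). Steers had no count of KCNS2, KCNE1 or KCNU1, with 50, 40 and 16 counts over the calves, which makes KCNS2 at least 3.85-fold, KCNE1 at least 3.24-fold and KCNU1 at least 1.24-fold lower in steers. Calves 2 and 4 also had no count of KCNE1, and its bound was 1.16-fold without calf 3. The KCNS2 bound was 2.34-fold without calf 1. Of these, KCNS2 was called without the filter (adjusted p = 0.0281, edgeR) and KCNE1 and KCNU1 were not (0.118 and 0.074). KCNJ6 had 2 pairs in steers and 27 in calves and was not called there (adjusted p = 0.0687, edgeR). The other 9 had 10 to 69 counts in all and no call. These 6 genes were chosen after their values were seen.

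KCNK10 had 46, 2, 68 and 106 counts in steers 1 to 4, against 4, 2, 2 and 0 counts in calves 1 to 4. KCNG3 had 64, 0, 30 and 155 counts in steers 1 to 4, against 0, 0, 4 and 0 counts in calves 1 to 4. Steers 1, 3 and 4 were above all calves for both genes, and steer 2 was not.

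Of the 8 channel genes with no count, KCNMB1, KCNJ13, KCNS1 and KCNV2 lie wholly within KCNIP1, GIGYF2, STK4 and PUM3 in the file's spans and could not be measured. KCNJ5, KCNK18, KCNA10 and KCNV1 have spans of their own and no read in any of the 8 libraries.

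Genes that work beside potassium channels were counted from 5 lists. Of 7 tested partner subunits outside the KCN names 2 fell and none rose by edgeR, DESeq2 or limma-voom, ABCC8 as given above, while DPP6, a KCND partner, fell by 2.9 ± 0.80 on the log2 scale (adjusted p = 0.0334, edgeR), a call lost with the smooth muscle covariate (-3.43 ± 1.34, adjusted p = 0.136). Of 15 voltage-gated calcium channel subunits only the neuronal pore CACNA1B was called, with a log2 change of -2.7 ± 0.49 (adjusted p = 0.00601, edgeR). With the smooth muscle covariate that call was lost (-2.71 ± 0.83, adjusted p = 0.0656). Of 6 intracellular calcium release channels none was called by edgeR. Among the release channels ITPR3 alone had an unadjusted p under 0.05 (-0.58 ± 0.22), and neither DESeq2 nor limma-voom called any. DESeq2 called 1 calcium channel subunit higher.

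Of 11 potassium pump and cotransporter genes 1 rose and 2 fell. SLC12A7 had 346, 242, 308 and 428 CPM in steers 1 to 4, against 42.4, 44.9, 50.2 and 51.9 CPM in calves 1 to 4. SLC12A7, a potassium-chloride cotransporter, rose by 2.81 ± 0.23 (SE, edgeR, adjusted p = 0.00014) with no overlap. ATP1B1 had 8.32, 13.7, 19.4 and 10.8 CPM in steers 1 to 4, against 59.6, 86.1, 109 and 44.6 CPM in calves 1 to 4. ATP1B1, a beta subunit of the sodium pump, fell by 2.52 ± 0.35 (SE, edgeR, adjusted p = 0.00168). Of 4 tested hyperpolarization-activated and cyclic nucleotide-gated channels 2 fell, HCN4 among them with a log2 change of -3.83 ± 0.94 (adjusted p = 0.0212, edgeR) that was not called with the smooth muscle covariate (-1.82 ± 1.06, adjusted p = 0.304). None rose by edgeR or limma-voom, with 1 higher by DESeq2. In these lists a rise at an unadjusted p under 0.05 was seen for 1 partner subunit, 1 calcium channel subunit and 1 gene of the last list.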

How the data were processed

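Total RNA was isolated and copied with random hexamers, with dUTP marking the second strand, per the labels' protocols. The submitters' processing notes name Trimmomatic 0.39, STAR 2.7.11a, featureCounts 2.0.2 and DESeq2 1.42.0. The deposited table holds whole-number counts per gene name. Per the file headers, the authors counted reads over whole transcript spans, introns included, without using strand, so antisense reads are not separated. Both mates of a pair were counted, and reads in more than 1 gene dropped. Positions are those of the table (build not given in the sources used here). A RefSeq table (ARS-UCD2.0), used for names, matched all 95 KCN symbols.

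These counts were compared between steers and calves by edgeR 4.0.16 under R 4.3.3, with filterByExpr by group, TMM scaling, robust quasi-likelihood fits and Benjamini-Hochberg adjustment over 16326 genes. SE is the size of the log2 change over the square root of its F value. CPM uses TMM-scaled library sizes. Intervals are exact, for counts halved to pairs, and with the 3-count floors cover counting error only. In all, 22 alternatives were run, DESeq2 1.42.0 and limma 3.58.1 among them, and the edgeR fit was tested on simulated data. There it recovered 6% of 2-fold and 57% of 4-fold changes, with 2 wrong calls, so a gene not called may still have changed. Precision is limited by 4 animals a group.

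Named genes are all called members, other tested members averaging at least 5 CPM in either group, and up to 4 called genes at that level per pathway list. DPP6, CACNA1B and HCN4 averaged under that level in both groups and were named outside this rule. Members and lists were chosen with earlier results of these data known. Some genes that meet this rule are not reported here.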

Additional observations from a re-analysis of the deposited data

Results flagged for a closer look

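Each group of 4 libraries was checked for a highest or lowest value standing far from the other 3, over 28 named channel genes. Of 56 groups 2 (3.57%) held such a value, and chance gives about 5%. In KCNK7 steer 1 had 50.5 CPM, against 23.4 to 25.3 CPM in the other steers, and without steer 1 the log2 change was -2.10. In KCNH6 calf 2 had 0.903 CPM, against 0.233 to 0.335 CPM in the other calves, and the fall was still called without calf 2.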

How the results depend on the processing

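Of 17 called channel genes checked singly, 8 kept their call under every alternative that could fit them (KCNN4, KCNK1, KCNK2, KCNK5, KCNIP3, KCNG1, KCNH6 and KCNQ5) and 9 lost it under at least 1; KCNK4, KCNAB1, KCNA2 and KCNG2 also lost it with the slope of level on counted span as a covariate. The count called higher, 7, became 4 with that slope and 4 to 12 with 1 library left out, with 12 without steer 4 and 4 without calf 4 or without steer 1. The count called lower, 11, became 17 with DESeq2 and 8 to 12 with 1 library left out. In the pathway lists the count called higher, 1, became 3 with DESeq2, 4 with the span slope, 4 without both calf 2 and steer 4, and 1 to 3 with 1 library left out, and the count called lower, 7, became 2 with the smooth muscle covariate. That covariate reversed KCNE4 (-1.44), KCNF1 (-1.10), KCNG2 (-0.52), KCNH2 (-0.94), KCNIP1 (-0.61) and KCNJ8 (-1.56). KCND1 was reversed without calf 2 and steer 4 (0.069), and with 1 library left out KCNJ8 ran from -0.066 to 0.62. The cause of these changes was not tested.

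Scaling to library size alone moved the median log2 change of all genes by -0.11, and 835 of all genes were then called higher and 1555 lower, with 6 and 13 channel genes. Replicate numbers only name animals: deviations of same-numbered libraries correlated at 0.20, 0.08, -0.10 and -0.27. With the replicate block 6 channel genes were called higher and 8 lower, all among the 18, and 785 and 1046 of all genes. KCNK16, KCNAB1, KCNA2 and KCNA6 lost their calls there. Channel genes under 1 CPM rest on few counts per library, so their sizes are loosely set.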
